A study of Mus musculus with 20 samples.

Results

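The comparison set the hippocampal transcriptome of 5 hAPOE4 males (mice S174 to S178) against that of 5 hAPOE3 males (mice S154 to S158), 10 of the 20 mice in the series. Genes entered when at least 10 counts were present in at least 5 of these 10 libraries, which kept 20761 of 33119 genes, and autosomal genes were read first. Both groups were homozygous for a human APOE allele put in place of the mouse gene by targeted replacement, APOE4 or APOE3, on the C57BL/6 strain and were taken at 16 months of age. Each library came from the hippocampus of 1 mouse, perfused with saline before dissection, and held polyA-enriched bulk RNA. Each allele is carried by its own line, so the allele and anything else that differs between the lines cannot be told apart. The other 10 mice were females of the same genotypes and age and served as a separate set of animals. All 20 mice entered 1 fit, so the male and female tests shared the estimate of spread of each gene.

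APOE encodes apolipoprotein E, the main lipid carrier that astrocytes secrete in the brain. Its particles deliver cholesterol and phospholipid to neurons and glia through receptors of the low-density lipoprotein family. The APOE4 allele is the strongest common genetic risk factor for late-onset Alzheimer's disease, while APOE3 is the common neutral allele, and hAPOE3 males are therefore the reference here.

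Total counts ran from 37466054 to 52520279 in hAPOE3 males and from 39195405 to 48274653 in hAPOE4 males. Hippocampal subfield markers were present throughout, with a summed level of 822 to 1226 CPM (counts scaled to the size of the library) in hAPOE3 males and 818 to 1252 CPM in hAPOE4 males. Markers of neighbouring tissue were uneven. Thalamic markers summed to 660 CPM in hAPOE3 male S158 and to 626 and 580 CPM in hAPOE4 males S176 and S178, against 95.3 to 159 CPM in the other 7. Choroid plexus markers summed to 1151 to 4348 CPM in S157, S158, S176 and S178 and to at most 413 CPM in the other 6, and striatal markers reached 919 CPM in S158 against at most 262 CPM elsewhere. With the mean log2 CPM of the choroid plexus markers as a covariate, 141 genes were called, 122 of them among the 123 called without it. The part of thalamic and striatal tissue in single results was not tested, except where a value without those libraries is given.

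Oocyte transcripts separated the hAPOE4 males from one another. Omt2a, a gene known from oocytes, stood at 40.4, 23.4, 27.4 and 18.97 CPM in S175, S176, S177 and S178. It had 0 counts in S174 and 1 count in each hAPOE3 male. No female library was above 1 CPM. Of 40 genes on an oocyte list, 34 were higher in each of these 4 libraries than in any of the other 16 libraries of the series, Omt2a included, and 26 of the 34 were too low elsewhere to enter the test. The summed level of the list was 356, 197, 248 and 184 CPM in the 4 libraries, 7.74 CPM in S174 and 7.27 to 10.04 CPM in hAPOE3 males. Leaving out the columns with Omt2a above 1 CPM therefore left 1 hAPOE4 male, S174, against 5 hAPOE3 males. Its spread was taken to equal that of the other groups.

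**Figure D1:**
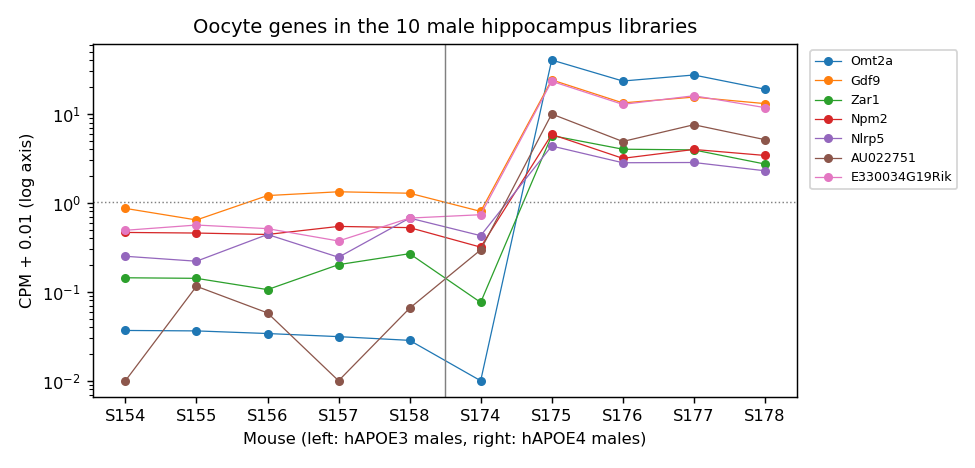
CPM plus 0.01 on a log axis of Omt2a and 6 other genes of the oocyte list in each male library, with hAPOE3 males left of the vertical line and hAPOE4 males right of it; the dotted line is 1 CPM. The 4 libraries S175 to S178 sit above the other 6 for each gene shown, and S174 lies near the hAPOE3 males for Omt2a, Gdf9, Zar1, Npm2 and Nlrp5.

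Across the 20761 genes, 123 differed between hAPOE4 and hAPOE3 males at an adjusted p under 0.05 (edgeR quasi-likelihood test, Benjamini-Hochberg), which is 0.592% of the genes tested. Of these, 79 were higher (0.381%) and 44 lower (0.212%) in hAPOE4 males. Autosomal genes gave 108 of the calls among 19258 tested (0.561%), 73 higher and 35 lower. At an unadjusted p under 0.05 the share was 9.03%, with 4.34% higher and 4.69% lower. The CPM of the groups did not overlap for 1.39% of all genes, and for 59 of the 108 autosomal genes called. The median log2 fold change over all genes tested was 0.000441.

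Without the 4 libraries with Omt2a above 1 CPM, 5 genes were called (0.0241%), and the share at an unadjusted p under 0.05 was 4.77%. These 5 were Serpina3n, Eps8l1, Oscar and Gm5815, which were higher in hAPOE4 males, and Wdfy1, which was lower. Oscar and Gm5815 are named because they belong to these 5, a choice made after their values were seen. The fold change kept its sign in 81 of the 108 autosomal genes called. Both fits held S174 and the same hAPOE3 males, so part of this agreement was fixed in advance.

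The 108 autosomal genes divided by where S174 lay. In 49 of the 73 higher genes the value of S174 was nearer the hAPOE3 males, and their median log2 fold change of 2.26 became -0.08 with S174 alone. None of the 49 was past the threshold in the same direction in females, and 2 were past it in the opposite direction. In the other 24 higher genes S174 was nearer the other hAPOE4 males, with a median of 1.47 and of 1.32 with S174 alone, and 15 of the 24 were also higher past the threshold in females. S174 was nearer the other hAPOE4 males in all 35 lower genes, whose median was -1.13, and -1.16 with S174 alone. Of these 35, 23 were also lower past the threshold in females, where the background of calls was 0.67%. The values with S174 alone follow in part from this division, whereas the females did not enter it.

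**Figure D2:**
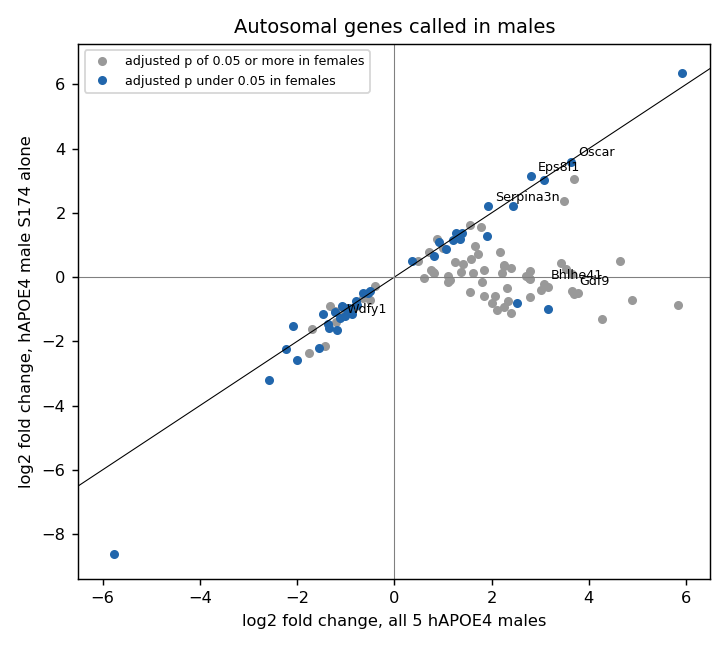
Each point is one of the 108 autosomal genes called in males, with its log2 fold change from all 5 hAPOE4 males on the x axis and from S174 alone on the y axis; blue points had an adjusted p under 0.05 in females and the diagonal marks equal values. The lower genes and 24 of the higher genes lie near the diagonal, while 49 higher genes spread around 0 on the y axis.

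Serpina3n, a secreted serine protease inhibitor produced by reactive astrocytes, showed the clearest rise among well expressed genes. Its level was 39.5, 47.6, 53.2, 31.4 and 37.6 CPM in hAPOE3 males and 194, 181, 132, 159 and 128 CPM in hAPOE4 males. S174 was the highest of all and the groups did not overlap. The log2 fold change was 1.92 ± 0.15 (SE, n = 5 per group; edgeR adjusted p = 1.82e-07), 2.21 with S174 alone (edgeR adjusted p = 5.61e-05) and 2.11 in females. Serpina3n has close paralogs in a gene cluster, and how reads shared with them were divided is not known.

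Eps8l1, an adaptor protein that links receptor signaling to actin, was at 1.28, 2.66, 1.27, 1.30 and 2.33 CPM in hAPOE3 males and 15.6, 14.3, 8.97, 10.7 and 12.5 CPM in hAPOE4 males. The groups were far apart, with a log2 fold change of 2.81 ± 0.25 (SE; edgeR adjusted p = 1.1e-06), 3.13 with S174 alone and 3.29 in females. Gm15494, an antisense transcript that overlaps Eps8l1, went the other way, from a mean of 2.22 ± 0.49 CPM (SD) to 0.515 ± 0.182 CPM (log2 fold change -2.10, edgeR adjusted p = 6.03e-05). Reads of the overlapping pair may not be separable. Oscar, an immunoglobulin-like receptor of osteoclasts and myeloid cells, stood at 0.187, 0.369, 0.192, 0.320 and 0.203 CPM in hAPOE3 males and at 3.08, 4.07, 2.25, 2.62 and 3.96 CPM in hAPOE4 males. Its log2 fold change was 3.64 ± 0.24 (SE; edgeR adjusted p = 1.65e-08), 3.59 with S174 alone and 3.33 in females. Gm5815, a processed pseudogene, was at 0 to 0.0554 CPM in hAPOE3 males and at 0.900 to 2.09 CPM in hAPOE4 males. The size of its fold therefore depends on a handful of counts. It met the count minimum only in hAPOE4 males, so it entered the test through the group where it was high.

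Wdfy1, which encodes an early endosomal protein that binds phosphatidylinositol 3-phosphate, had the smallest adjusted p of the falls. It stood at 58.2, 54.2, 50.3, 51.5 and 52.4 CPM in hAPOE3 males and 22.04, 24.6, 24.7, 23.9 and 26.9 CPM in hAPOE4 males. The spread within each group was small beside the difference, and the log2 fold change was -1.13 ± 0.07 (SE; edgeR adjusted p = 3.92e-09), -1.27 with S174 alone and -1.19 in females. Cd3d, the delta chain of the T cell receptor complex, was at 2.09, 1.502, 1.51, 3.29 and 3.56 CPM in hAPOE3 males and 0.506, 0.475, 0.443, 0.476 and 0.657 CPM in hAPOE4 males. Its log2 fold change was -2.23 (edgeR adjusted p = 0.000221), with -2.24 from S174 alone and -1.92 in females. In bulk tissue, fewer cells of a type and less RNA per cell cannot be told apart. Of 19 T cell genes 9 were tested, Cd3d was the 1 called, and the median of the 9 was -0.34, or 0.10 without S158. S158 had the highest summed T cell level, 27.2 CPM, against 9.69 to 12.8 CPM in hAPOE4 males.

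Promoters are shown for 4 of the named autosomal genes with a RefSeq entry, 2 rises shared with females, 1 fall shared with females and E330034G19Rik, which rose where S174 did not. RefSeq listed 3 promoters each for Eps8l1 and E330034G19Rik, of which the one nearest the annotated gene start was taken. Each run covers 250 bases before to 50 bases after the gene start in build GRCm38.p6, is read from the reference strain and is printed 5′ to 3′. Capitals mark TTCNNNGAA, the palindrome that STAT factors bind, or TATAAA, searched on both strands.
Serpina3n, chr12:104406458-104406757, + strand: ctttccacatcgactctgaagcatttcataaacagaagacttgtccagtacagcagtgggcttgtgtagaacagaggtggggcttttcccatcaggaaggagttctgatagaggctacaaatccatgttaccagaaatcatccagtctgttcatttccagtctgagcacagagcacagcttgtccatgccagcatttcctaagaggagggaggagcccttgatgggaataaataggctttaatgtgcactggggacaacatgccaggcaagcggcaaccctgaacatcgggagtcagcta
Eps8l1, chr7:4460447-4460746, + strand: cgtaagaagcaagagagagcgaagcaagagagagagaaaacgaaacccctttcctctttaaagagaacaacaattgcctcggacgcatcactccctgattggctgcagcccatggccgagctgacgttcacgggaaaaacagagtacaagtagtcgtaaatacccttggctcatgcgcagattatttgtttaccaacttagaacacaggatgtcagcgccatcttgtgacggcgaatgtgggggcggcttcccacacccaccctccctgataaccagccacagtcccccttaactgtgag
Cd3d, chr9:44981536-44981835, + strand: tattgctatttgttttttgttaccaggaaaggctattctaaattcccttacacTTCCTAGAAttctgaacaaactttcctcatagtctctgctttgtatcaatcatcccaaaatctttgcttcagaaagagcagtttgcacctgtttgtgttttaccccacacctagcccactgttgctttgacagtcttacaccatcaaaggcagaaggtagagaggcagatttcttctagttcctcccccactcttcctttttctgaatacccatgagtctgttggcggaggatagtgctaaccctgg
E330034G19Rik, chr14:24292964-24293263, + strand: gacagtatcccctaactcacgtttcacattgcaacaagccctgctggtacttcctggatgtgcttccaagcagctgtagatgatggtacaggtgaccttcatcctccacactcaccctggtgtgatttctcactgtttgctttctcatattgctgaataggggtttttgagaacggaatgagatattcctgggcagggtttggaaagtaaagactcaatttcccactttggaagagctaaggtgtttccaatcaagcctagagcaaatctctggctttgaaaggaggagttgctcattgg
TTCNNNGAA occurred 1 time, in the Cd3d promoter, and TATAAA in none of the 4. Of all 32851 promoters in the table, 8.3% held the palindrome and 13.6% TATAAA, and the absence of these letters from a window says nothing of a factor's binding.

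The other named rises that S174 shared were smaller. Kirrel2, a nephrin-like adhesion protein, rose from 8.38 ± 1.65 to 20.1 ± 3.77 CPM (SD, n = 5 per group; log2 fold change 1.26, edgeR adjusted p = 0.000226). Dnah6, an axonemal dynein heavy chain, rose by 1.40 (log2) and Crb1, an apical polarity protein, by 1.36. Tmc4, a transmembrane channel-like protein, rose by 1.05. Each of these 4 was past the threshold in females as well. Ttll5, a tubulin polyglutamylase, rose by 1.00 in males and gave 0.24 in females, a difference between the sexes that did not pass (edgeR adjusted p = 0.657).

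Among the falls, Ninj2, an adhesion protein, fell by 1.55 on the log2 scale and Cacng6, a calcium channel gamma subunit, by 1.47. Sbk3, a predicted kinase, fell by 1.19, and Gm45062, which overlaps Umad1 and other genes, by 1.34. These 4 were past the threshold in females too. Asprv1, an aspartic protease of the epidermis, fell by 1.23, the noncoding Gm20186 by 1.31 and the pseudogene Mrgprc2-ps by 1.07, and these 3 were not past it in females, where their values were -0.99, -0.63 and -0.67. Leaving out single mice took Dnah6, Tmc4, Cacng6, Asprv1 and Mrgprc2-ps past 0.05, with the highest edgeR adjusted p of 0.0854, 0.0847, 0.053, 0.123 and 0.0727. In the same order, these genes stayed called in 4, 5, 9, 4 and 7 of the 10 fits with 1 male left out. Without S158, S176 and S178 together, Crb1 and Gm20186 also missed the threshold, with edgeR adjusted p of 0.128 and 0.185. In that setting the edgeR adjusted p of Mrgprc2-ps was 0.286. With only the 10 males in the fit, the edgeR adjusted p was 0.0625 for Crb1, 0.27 for Tmc4, 0.07 for Ttll5, Ninj2 and Mrgprc2-ps, 0.0882 for Cacng6 and 0.132 for Asprv1, each with the same direction.

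**Figure D3:**
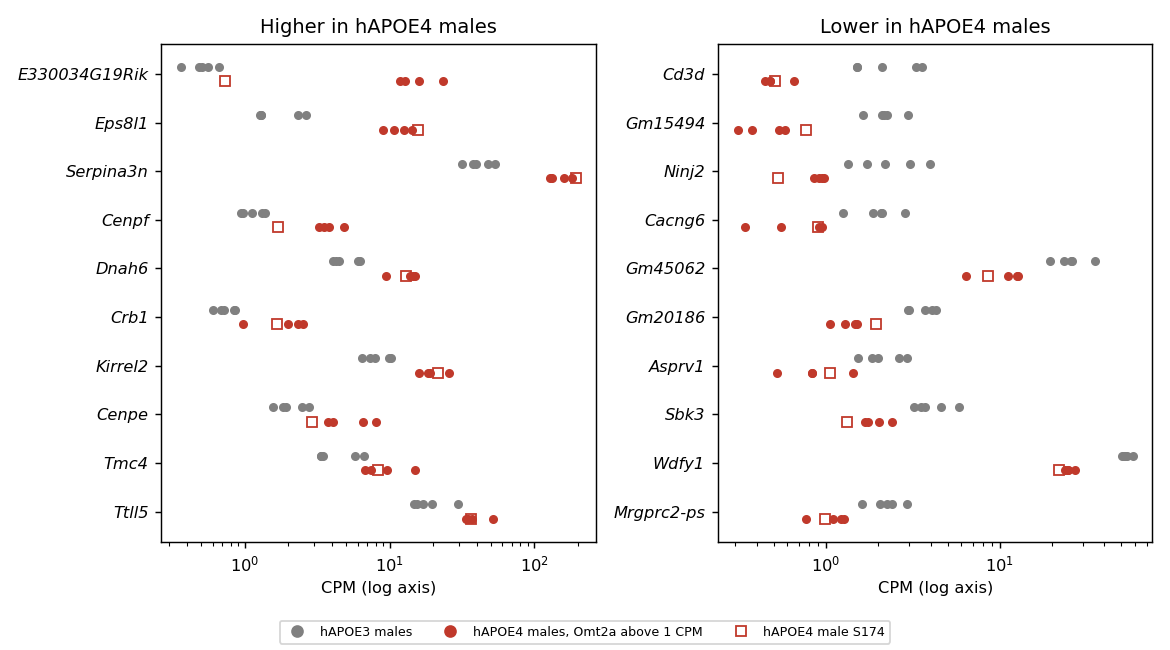
CPM on a log axis of the 10 largest autosomal rises (left) and falls (right) among genes whose groups did not overlap, with 1 point per mouse: grey for hAPOE3 males, filled red for the 4 hAPOE4 males with Omt2a above 1 CPM and an open square for S174. S174 lies with the other hAPOE4 males for Serpina3n, Eps8l1 and the falls, and next to the hAPOE3 males for E330034G19Rik, Cenpf and Cenpe.

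Genes of the oocyte list were among those that rose with S174 nearer the hAPOE3 males. Gdf9, a growth factor that oocytes secrete, was at 0.857, 0.632, 1.20, 1.32 and 1.27 CPM in hAPOE3 males and at 0.792, 24.1, 13.3, 15.5 and 13.1 CPM in hAPOE4 males. S174 lay within the hAPOE3 range, so the groups overlapped. The log2 fold change was 3.64 ± 0.50 (SE; edgeR adjusted p = 0.000361), -0.42 with S174 alone and 0.13 in females, and the difference between the sexes passed its own test (edgeR adjusted p = 0.0357). The median of the 12 oocyte genes tested was 2.79, or -0.55 with S174 alone. Of the 12, 8 were called, all higher, beside 0.381% of all genes tested. The 8 were E330034G19Rik, Gdf9, Npm2 (a nucleoplasmin of the egg), Zar1 (a maternal RNA regulator), Wee2 (a kinase of meiotic arrest), Nlrp5 and Nlrp9b of the maternal NLRP family, and AU022751. Zar1 and Nlrp9b met the count minimum only in S158 and in S175 to S178. These genes therefore entered the test mainly through the libraries where they were high. Nlrp9b stayed called in 3 of the 10 fits with 1 male left out, with an edgeR adjusted p of up to 0.117. With only the 10 males in the fit, 5 of the 8 lost theirs, with edgeR adjusted p of 0.0525 for Zar1, 0.0997 for Wee2, 0.07 for Npm2, 0.067 for Nlrp5 and 0.267 for Nlrp9b. The list was assembled with these libraries already known to differ, so it is not independent evidence.

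E330034G19Rik was at 0.363 to 0.664 CPM in hAPOE3 males, 0.726 CPM in S174 and 11.8 to 23.3 CPM in the other 4. Cenpf and Cenpe, kinetochore proteins of dividing cells, rose by 1.57 and 1.25 on the log2 scale, gave 0.56 and 0.46 with S174 alone and gave -0.41 and 0.03 in females. Cenpe was not called with only the 10 males in the fit (edgeR adjusted p = 0.187). Bhlhe41, a transcriptional repressor of the circadian clock, was at 72.2, 55.4, 64.0, 60.3 and 67.9 CPM in hAPOE3 males and at 54.7, 942, 567, 671 and 451 CPM in hAPOE4 males. S174 was below every hAPOE3 male. Bhlhe41 was the 1 gene called of 15 clock genes (median -0.08), and its log2 fold change of 3.07 (edgeR adjusted p = 0.000245) became -0.23 with S174 alone. The part of the oocyte transcripts in the rise of Bhlhe41, Cenpf and Cenpe was not tested.

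Outside the autosomes 15 genes were called, 5 on chromosome X and 10 without a single chromosome in the annotation. Xist, the noncoding RNA of the inactive X chromosome, was at 3.95 to 6.80 CPM in hAPOE3 males, 7.48 CPM in S174 and 19.3 to 28.4 CPM in the other 4 hAPOE4 males, against a mean of 852 CPM in hAPOE4 females. Its log2 fold change of 1.81 (edgeR adjusted p = 0.000238) became 0.37 with S174 alone. AU022751 stood at 0 to 0.105 CPM in hAPOE3 males, 0.286 CPM in S174 and 4.89 to 9.97 CPM in the others. Like Gm5815, it met the count minimum only in hAPOE4 males. Erdr1, a gene near the pseudoautosomal boundary, moved in every hAPOE4 male: it was at 94.3, 51.1, 117, 128 and 157.5 CPM in hAPOE3 males and at 2.64, 3.55, 3.14, 3.91 and 2.12 CPM in hAPOE4 males (log2 fold change -5.16, edgeR adjusted p = 6.7e-07; -5.37 with S174 alone). G530011O06Rik fell from 6.55 ± 3.17 to 2.20 ± 0.32 CPM (SD), and 1 transcript without a gene symbol fell by 1.34 on the log2 scale. No gene placed on the Y chromosome or in the mitochondrial genome was called, and the 10 without a single chromosome could not be assigned.

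The share of genes called varied by chromosome, which is given here as a description. Over all autosomal genes tested it was 0.561%. Chromosome 1 at 1.12% and chromosome 12 at 1.09% were close to chromosome 7. Chromosome 6 held 18 of 1019 genes tested (1.77%), 10 of them past the threshold in females too, and chromosome 7, which carries Apoe, held 20 of 1687 (1.19%), 12 of them in females too. Within 10 Mb of Apoe 3 of 321 genes were called (0.935%), and S174 was nearer the hAPOE3 males in each. Between 10 and 20 Mb before Apoe 9 of 112 genes were called (8.04%), all 9 also past the threshold in females and all 9 shared by S174. These included Oscar, Cacng6, Tmc4, Eps8l1, Gm15494 and Sbk3, which lie 14.7 to 16.3 Mb away. Between 10 and 20 Mb beyond Apoe 4 of 128 were called (3.12%), 3 of them in females too. Chromosomes 10, 16, 18 and 19 held none.

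**Figure D4:**
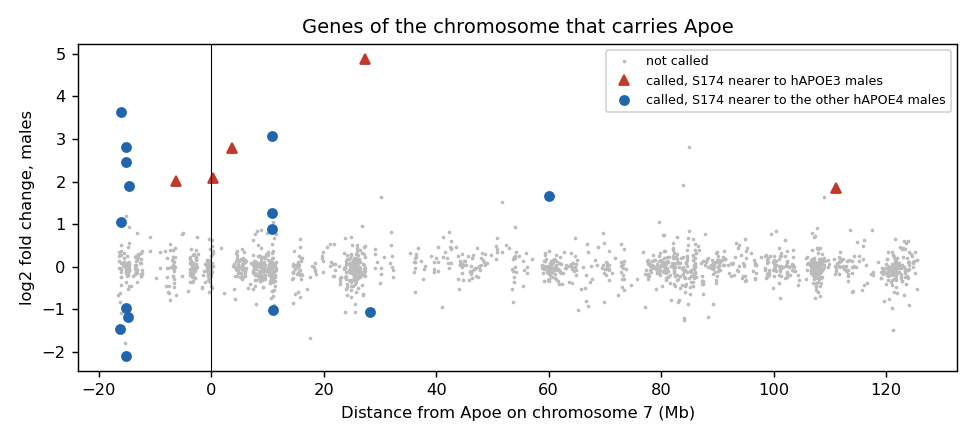
Log2 fold change in males of every gene tested on chromosome 7 against its distance from Apoe in Mb, negative towards the start of the chromosome; grey points were not called. Genes called with S174 on the side of the other hAPOE4 males (blue circles) group near -15 and 11 Mb, and the 3 called within 10 Mb are genes for which S174 was nearer the hAPOE3 males (red triangles).

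Transcripts assigned to Apoe itself did not pass the test. They stood at 56.2, 53.8, 79.7, 61.8 and 75.9 CPM in hAPOE3 males and at 58.5, 66.4, 98.9, 80.5 and 88.4 CPM in hAPOE4 males, with a log2 fold change of 0.26 ± 0.16 (SE; edgeR adjusted p = 0.614). The groups overlapped. Reads were assigned to mouse transcripts, and this value is not a measure of the human allele.

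Of the 37 gene lists, 33 had no gene called, against 0.592% of all genes. In the lipid pathways of apolipoprotein E, lipoprotein and lipid-loading genes had a median of -0.06 over 13 genes, from Apoc1 at -0.45 to Abca1, the cholesterol exporter that lipidates apolipoprotein E, at 0.33. Lipoprotein receptors had a median of 0.10 over 13, from Lpl at -0.21 to Lrp1, a large endocytic receptor, at 0.34. Cholesterol synthesis had a median of -0.03 over 26 genes (Fdps -0.29, Insig2 0.15), fatty acid synthesis and lipid droplets 0.12 over 18 (Dgat1 -0.25, Plin4 0.55) and fatty acid oxidation -0.05 over 21 (Etfb -0.24, Ppara 0.51). Glycolysis had a median of -0.04 over 20 genes (Ldhb -0.22, Pfkm 0.30) and pyruvate entry and TCA cycle genes -0.04 over 24 (Mpc1 -0.29, Pcx 0.20). With S174 alone the median was -0.16 for lipoprotein genes, 0.16 for receptors, 0.01 for cholesterol synthesis, -0.03 for fatty acid synthesis, -0.11 for fatty acid oxidation, 0.06 for glycolysis and 0.02 for the TCA cycle. None of these genes passed the threshold.

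Nuclear subunits of the respiratory chain lay mostly below 0. Of 41 genes, 37 had a negative log2 fold change and the median was -0.25. An unadjusted p under 0.05 was found for 8, all lower, but none was called (smallest edgeR adjusted p = 0.452). Over all genes tested, 50.1% had a positive log2 fold change, and 4.69% were lower at an unadjusted p under 0.05. The median was -0.24 with S174 alone and -0.07 in females. Summed levels overlapped: the hAPOE4 males lay between 6148 and 6876 CPM, inside the hAPOE3 range of 5820 to 8444 CPM, where S154 and S155 were low and S156, S157 and S158 high. The number of the 41 with an unadjusted p under 0.05 was 24 without S154, 22 without S155 and 0 without S156. No gene was called in any of these. Counts without S157 and S158, and the share of all genes at that p in these settings, are not given. Genes encoded by the mitochondrial genome had a median of -0.15 over 13, from mt-Nd6 at -0.36 to mt-Nd4l at 0.07, and of -0.30 with S174 alone.

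Interferon response genes lay above 0 in all 31 tested, beside 50.1% of all genes. Their median log2 fold change was 0.50. An unadjusted p under 0.05 was found for 12, all higher, beside 4.34% of all genes tested. None was called (smallest edgeR adjusted p = 0.211, smallest DESeq2 adjusted p = 0.0624). Summed levels were 207, 215, 246, 247 and 285 CPM in hAPOE3 males and 269, 265, 465, 265 and 266 CPM in hAPOE4 males. S176 stood apart and the other 4 hAPOE4 males lay below S158 and above the other 4 hAPOE3 males. Without S176 the median was 0.19 with 27 of 31 above 0, with S174 alone 0.21, and in females 0.20. Usp18, an interferon-induced deubiquitinase-like protease, was highest at 1.10 and Ifi27 lowest at 0.03. S176 also had the highest choroid plexus level, 4348 CPM. With the mean log2 CPM of the choroid plexus markers as a covariate, the median was 0.40. All 31 genes stayed above 0 and none was called (smallest edgeR adjusted p = 0.12).

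Antigen presentation genes were near 0, with a median of 0.08 over 22 genes of class I (Psmb10 -0.40, Nlrc5 0.35) and -0.09 over 10 of class II (H2-DMa -0.31, H2-Ab1 0.65). Disease-associated microglia genes had a median of -0.24 over 23, from Cst7 at -0.86 to Spp1 at 0.71, homeostatic microglia genes -0.02 over 16 (Aif1 -0.39, Csf1r 0.20) and complement genes -0.07 over 20 (C5ar1 -0.36, Cd55 0.49). The median of the disease-associated list was -0.11 without S158 and -0.46 with S174 alone, and that of class I was -0.11 with S174 alone. Reactive astrocyte genes had a median of 0.07 over 27, and Serpina3n was the 1 called. With S174 alone the median was -0.02.

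Medians of neuronal and glial identity genes lay near 0 with all 5 hAPOE4 males and moved apart with S174 alone. The median was 0.06 over 21 genes of glutamatergic neurons (Nrgn -0.27, Shank2 0.29), 0.01 over 15 of interneurons (Lamp5 -0.79, Reln 0.46), 0.11 over 10 of astrocytes and -0.04 over 19 of oligodendrocytes (Opalin -0.69, Olig2 0.23). With S174 alone it was 0.30 for glutamatergic neurons (19 of 21 above 0), -0.11 for interneurons, 0.01 for astrocytes and -0.37 for oligodendrocytes (1 of 19 above 0). Summed oligodendrocyte levels were 5317 CPM in S174 and 5295 to 7067 CPM in S154 to S157, but 14450 CPM in S158. Those of glutamatergic neurons were 17797 CPM in S174, 13672 to 16848 CPM in S154 to S157 and 10283 CPM in S158. The medians with S174 alone were not tested without S158. Oligodendrocyte precursor genes had a median of 0.17 over 8, with Gpr17, a receptor of maturing precursors, highest at 0.52 (edgeR adjusted p = 0.162). Immediate early genes had a median of -0.21 over 18 (Fos -0.42, Jun 0.30), or 0.14 with 13 of 18 above 0 with S174 alone. Heat shock genes had a median of 0.16 over 14 (Hspa1b 0.83) and amyloid and tau genes 0.05 over 17. Striatal markers were below 0 in all 10 genes with a median of -0.93, and without S158 the median was 0.23 with 8 of 10 above 0.

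**Figure D5:**
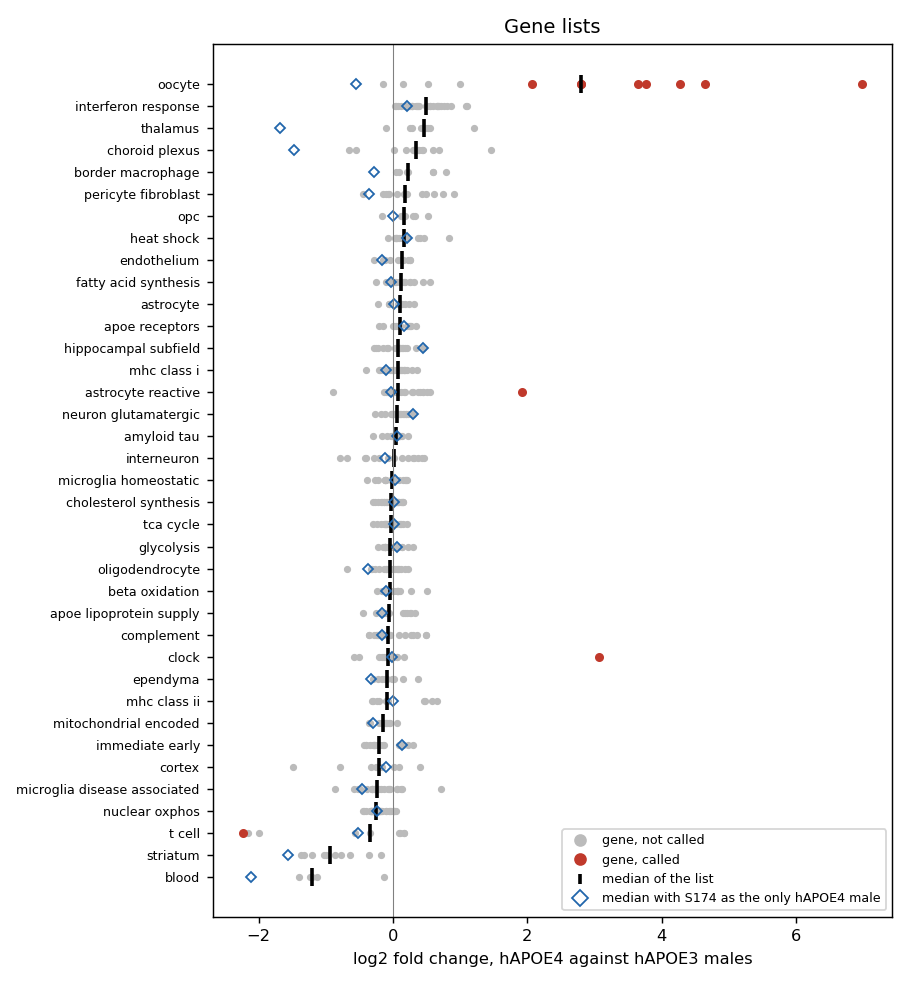
Log2 fold change in males of every tested gene of each of the 37 lists, ordered by list median; red points are called genes, black bars list medians and open blue diamonds the medians with S174 as the only hAPOE4 male. The interferon list lies above 0 throughout without a called gene, and the oocyte median drops below 0 with S174 alone.

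A difference between the sexes in the hAPOE4 effect was called for 35 genes (0.169%), 19 of them among the 108 autosomal genes called in males. All 19 were higher genes, and S174 was nearer the hAPOE3 males in 18. Of the 123 genes called in males 46 were past the threshold in females, which is 46 of the 139 called there, and 44 had the same direction. The comparisons share no mice. Each sex compared the same pair of genotypes, however, and both tests drew on the same estimate of each gene's spread.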

How the data were processed

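Bulk hippocampal polyA RNA of 20 mice was sequenced by the authors, 1 library per mouse. They assigned reads to mouse cDNA with Salmon 0.91, used tximport to obtain gene values, and deposited the estimated counts as whole numbers. A deposited table of normalized counts was not used. Groups followed the genotype and sex labels, and 0 columns were left out.

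Genes with at least 10 counts in at least 5 male libraries were fitted with edgeR 4.0.16 (limma 3.58.1, R 4.3.3): TMM scaling, 4 group means over all 20 libraries, quasi-likelihood test and Benjamini-Hochberg adjustment at 0.05. CPM used TMM-scaled library sizes. DESeq2 1.42.0, other scalings and filters, covariates and left-out libraries were alternatives. The scripts were tested on simulated counts. Positions came from GENCODE on GRCm38, and 30991 genes had a single one.

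Named genes were the 10 largest rises and falls among called autosomal genes whose groups did not overlap and whose log2 CPM averaged over 0, called genes of the lists, Apoe, Omt2a, up to 3 per direction outside the autosomes, and the extremes of lists without a call. Members and lists were chosen with earlier results of these data known. P-values measure the spread among these mice. No 2 male libraries agreed within sampling noise.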

Additional observations from a re-analysis of the deposited data

Results flagged for a closer look

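For the named genes, a gap test compared the highest or lowest mouse of each male group with its nearest neighbour. The gap was taken as a share of the group's range. Chance alone exceeds its limit in about 1 of 20 groups. Every named gene was tested in both groups, so some of the flags below are expected by chance alone. Among hAPOE4 males S174 was set apart as the lowest for Gdf9 (0.818), Zar1 (0.815), Wee2 (0.803), E330034G19Rik (0.801), AU022751 (0.792), Npm2 (0.782), Ninj2 (0.776), Bhlhe41 (0.741), Cst7 (0.72) and Nlrp5 (0.718). It was also the lowest for Omt2a (0.889), which only restates the split of the libraries, since that gene defined it. Gdf9, Zar1, Wee2, E330034G19Rik, AU022751, Npm2 and Nlrp5 belong to the oocyte list. That list was assembled with the split known, so their flags are not independent evidence. S176 was set apart as the highest for Pcx (0.842), Dnah11 (0.763) and Ttll5 (0.758) and as the lowest for G530011O06Rik (0.786). S178 was the lowest for Ndufs1 (0.722), S175 the highest for Hspe1 (0.773) and S177 the highest for Alas2 (0.83). Among hAPOE3 males S158 was the highest for Gpr6 (0.877) and Tnnt1 (0.876), and S157 was the highest for Lamp5 (0.725) and the lowest for Jun (0.727).

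The hAPOE4 effect differed between females and males for 6 named genes by the interaction test of edgeR. The female log2 difference minus the male one was -4.77 for E330034G19Rik (adjusted p = 0.00607), -1.98 for Cenpf (adjusted p = 0.011), -3.51 for Gdf9 (adjusted p = 0.0357), -3.11 for Bhlhe41 (adjusted p = 0.0112), -7.58 for AU022751 (adjusted p = 0.00777) and -1.89 for Xist (adjusted p = 0.00985). For each of these 6, S174 lay nearer the hAPOE3 males than the other hAPOE4 males did.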

How the results depend on the processing

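Beside 123 genes called, 108 of them autosomal and 46 past the threshold in females, DESeq2 called 213, 189 and 80, and no filter beyond 1 count called 221 and 194. With only the 10 males in the fit 47 and 39 were called. Removing male libraries, or libraries of either sex, with Omt2a above 1 CPM, or giving them a term of their own, called 5, 5 and 5 in each case, with 1 hAPOE4 male left to carry the comparison; Zar1 became -1.29, or -1.30 with the term, Wee2 -0.51, Gdf9 -0.42, Bhlhe41 -0.23, Npm2 -0.63 and Nlrp9b -0.59. Leaving out 1 male at a time gave 90 to 170 genes, 78 to 151 autosomal genes and 40 to 52 past the threshold in females, the highest of each without S174. Without S158, S176 and S178, chosen after seeing the data, 73 and 63 were called and 34 were past the threshold in females. RLE scaling, filterByExpr, a robust prior, removal of mitochondrial genes, a choroid plexus covariate and removal of the oocyte list each moved these counts by less than 1.5 times. Where the counts moved, the cause was not tested beyond the fewer or additional samples and genes each setting uses. For named genes called in males, 293 of 312 values under settings other than Omt2a kept direction and call, and 292 of 320 with 1 male left out; the rest kept direction only. No paired analysis was possible because the labels give no replicate numbers that pair mice across genotypes. With counts of a few per library, as for Gm5815, depth limits the size of a fold.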
